A study of Sus scrofa with 33 samples.

Results

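The genes described here encode the eukaryotic translation initiation factors, the proteins that bring the ribosome, the initiator tRNA and the messenger RNA together at the start of protein synthesis. They were followed in the right ventricular free wall of pigs with acute pulmonary banding. A gene was a member if its probe set carried a single symbol in the platform annotation and that symbol was EIF followed by a digit, and each gene was read from its probe set of highest mean over all arrays. This gave 36 of the 6765 genes with a single symbol on the array. There were 4 members in the EIF1 group, 9 in EIF2, 9 in EIF3, 11 in EIF4, 2 in EIF5 and 1 in EIF6. All 36 were kept in every comparison, since no filter on dim probe sets was used.

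RNA came from 33 biopsies of 11 pigs, with 1 array per biopsy and 3 biopsies per pig. In the shunt arm (6 pigs) the biopsies were taken at baseline, after 120 min of pulmonary banding to bring on right ventricular failure, and after 60 min of banding together with a modified Glenn shunt, which leads venous blood past the right ventricle into the pulmonary circulation. In the control arm (5 pigs) the first 2 biopsies were the same and the last one followed 60 min of banding without a shunt. Every pig was banded, the arms were split at random after failure had set in, and no pig without banding was biopsied over the same hours, so a change between biopsies holds all that elapsed between them. The labels give no age, sex or breed.

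Initiation begins when the eIF2 complex carries the initiator tRNA to the small ribosomal subunit, on which eIF1, eIF1A and the large eIF3 complex sit. The cap-binding complex, made of the cap-binding protein eIF4E, the scaffold eIF4G and the RNA helicase eIF4A, recruits that subunit to the capped messenger RNA, and eIF5B then joins the large subunit. The cell sets the rate mainly at the eIF2 step, where phosphorylation of its alpha subunit blocks the exchange factor eIF2B, and at the cap, where the binding proteins of the EIF4EBP family hold eIF4E away from eIF4G. In heart muscle, protein synthesis responds to a rise in mechanical load.

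All levels below are log2 values made by the authors with RMA, a method that puts the arrays on a common distribution, and a change is the value of 1 biopsy minus that of another from the same pig. An array value compares 1 probe set between samples and not 1 gene with another. In these bulk samples, fewer cells of a type and less RNA per cell cannot be told apart. The array values lay between 2.21 and 15.2, the medians of the arrays between 6.10 and 6.17, and their pairwise correlations between 0.956 and 0.995. Markers fixed for ventricular cardiomyocytes were abundant in all biopsies, with a summed level of 17.53 to 17.75 on the log2 scale over 11 measured genes. By the control RNAs added to the samples, the arrays formed 3 sets of pigs: shunt pigs 1 to 4, shunt pigs 5 and 6, and the 5 control pigs. The Dap control lay at 3.09 to 3.37 in the first set, 8.27 to 8.77 in the next and 6.76 to 9.14 in the control pigs, and the BioB control at 8.01 to 8.54, 5.82 to 6.15 and, in the control pigs, 8.84 to 10.02. No set held both arms, so array set and arm cannot be told apart in any comparison between the arms. The sets were drawn by whole pigs, so a change within a pig stays within 1 set by that definition. The Dap range was wide in the control pigs, and whether their arrays divide further was not tested.

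Banding for 120 min was followed by opposite changes within the factor family. EIF4A1 and EIF4E, which encode the helicase and the cap-binding protein of the cap-binding complex, rose most, with increases of 2.56-fold and 1.58-fold over the 11 pigs. Of the 4 measured subunits of the exchange factor eIF2B, 3 fell. Of all 36 genes, 7 were higher and 8 lower than at baseline at an adjusted p under 0.05, and 21 did not pass (limma with Benjamini-Hochberg over 23999 probe sets). Thus 19.4% of the members were called higher and 22.2% lower, against 11.6% and 17.4% of all probe sets and 13.1% and 20.8% of the 6765 genes. The members' median change was 0.04, and that of all genes was -0.02. The counts therefore lay near the background, and the family as a whole showed no common direction.

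**Figure D1:**
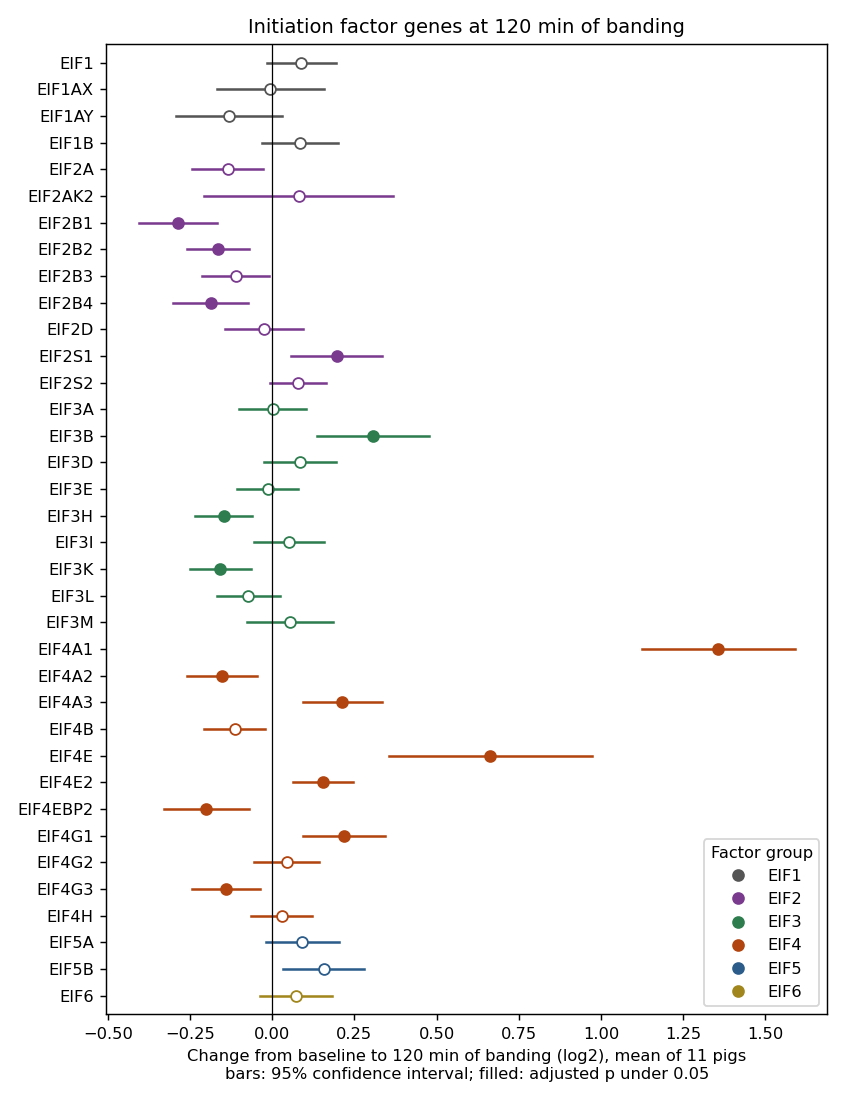
Change from baseline to 120 min of banding (log2, mean of 11 pigs) for the 36 initiation factor genes, ordered by name and coloured by factor group; bars are 95% confidence intervals and filled points passed an adjusted p under 0.05. EIF4A1 at 1.36 and EIF4E at 0.66 lie apart from the other members, which all fall between -0.29 and 0.31.

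EIF4A1 encodes the main form of eIF4A, the helicase that unwinds the leader of a messenger RNA. In shunt pigs its level lay between 9.43 and 9.99 (median 9.81) at baseline, between 11.08 and 11.50 (median 11.39) at 120 min and between 11.00 and 12.18 (median 11.74) at the last biopsy. The control pigs 1 to 5 had 9.95, 9.72, 9.57, 9.68 and 9.99 at baseline, 11.22, 11.08, 10.50, 10.61 and 10.87 at 120 min, and 10.96, 11.55, 10.68, 10.52 and 10.85 at the last biopsy. Every array at 120 min and at the last biopsy was above every baseline array of its arm, in both arms. The change to 120 min was 1.36 ± 0.11 (SE, adjusted p = 9.25e-09, limma), upward in 11 of 11 pigs, and it was the 52nd largest rise among the 6765 genes. With each array set fitted alone, the change was 1.65 (shunt pigs 1 to 4), 1.48 (shunt pigs 5 and 6) and 1.08 (control pigs).

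EIF4E encodes the protein that grips the cap of the messenger RNA. Its level in shunt pigs lay between 6.59 and 7.65 (median 7.19) at baseline, between 7.66 and 8.71 (median 7.99) at 120 min and between 7.44 and 9.14 (median 8.72) at the last biopsy. Control pigs had 6.89, 7.22, 7.26, 6.78 and 6.90 at baseline, 7.55, 7.68, 7.04, 7.16 and 7.18 at 120 min, and 7.98, 8.06, 7.997, 6.91 and 6.59 at the last biopsy. In shunt pigs all 120 min values were above all baseline values, by a narrow margin, while in control pigs the biopsies overlapped and pig 5 ended below its own baseline. Over all pigs EIF4E rose by 0.66 ± 0.15 at 120 min (SE, adjusted p = 0.00154, limma), with 10 of 11 pigs upward. In the same order of array sets its change was 1.04, 0.78 and, in control pigs, 0.31. It passed in shunt pigs 1 to 4 only (adjusted p = 0.0129, against 0.284 and 0.374, limma).

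EIF4G1 encodes the scaffold that holds the helicase and the cap-binding protein together. In shunt pigs it lay between 9.33 and 9.77 (median 9.57) at baseline, 9.61 and 9.88 (median 9.81) at 120 min, and 9.77 and 10.20 (median 9.82) at the last biopsy. Control pigs had 9.72, 9.84, 9.47, 9.65 and 9.71 at baseline, 9.84, 9.996, 9.75, 9.79 and 10.04 at 120 min, and 9.71, 10.08, 9.48, 9.93 and 9.94 at the last biopsy. The ranges overlapped between biopsies, but each pig was higher at 120 min than at its own baseline. The change was 0.22 ± 0.06 (SE, adjusted p = 0.00748, limma), upward in 11 of 11 pigs.

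EIF4A2 encodes the second form of the same helicase, and it went the other way. Shunt pigs had between 12.54 and 12.73 (median 12.62) at baseline, 12.35 and 12.60 (median 12.48) at 120 min, and 12.24 and 12.66 (median 12.39) at the last biopsy. Control pigs had 12.29, 12.32, 12.70, 12.26 and 12.25 at baseline, 12.08, 12.21, 12.36, 12.44 and 12.002 at 120 min, and 12.13, 12.13, 12.67, 12.10 and 11.99 at the last biopsy. The biopsies overlapped in both arms, and control pig 4 was the only pig that was higher at 120 min. EIF4A2 fell by 0.15 ± 0.05 (SE, adjusted p = 0.0276, limma), and the call was lost without any of 6 pigs in turn (shunt pigs 3, 4 and 5, control pigs 1, 3 and 5), with adjusted p between 0.0507 and 0.0651.

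**Figure D2:**
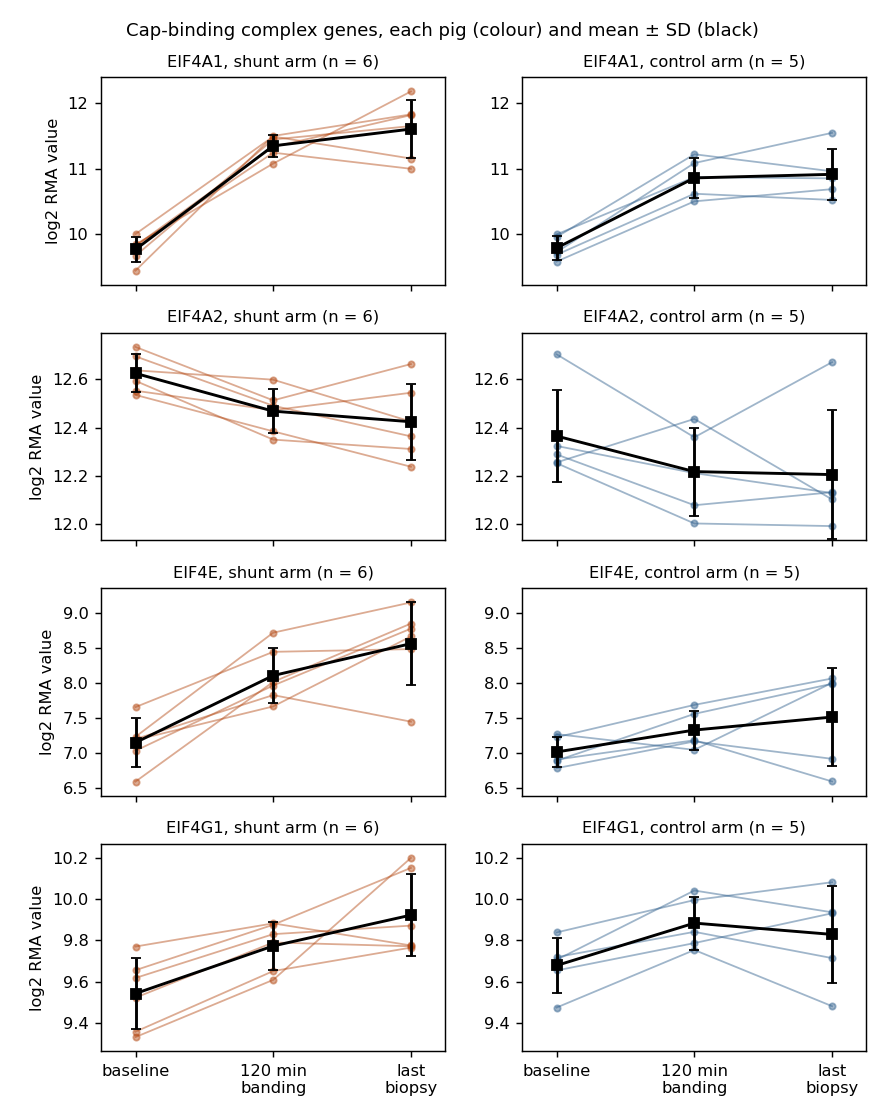
Levels (log2 RMA value) of the cap-binding complex genes EIF4A1, EIF4A2, EIF4E and EIF4G1 at the 3 biopsies, with the shunt arm (6 pigs) on the left and the control arm (5 pigs) on the right; thin lines are pigs and black squares are means with SD. EIF4A1 is above its baseline in every pig of both arms, and EIF4A2 is lower at 120 min in 10 of 11 pigs. In both arms each of these genes has a larger SD at the last biopsy than at baseline.

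Another 4 members of the EIF4 group passed at 120 min, 2 in each direction. EIF4A3, a relative of the helicase that works in the exon junction complex on spliced messenger RNA, had 9.34 to 9.57 (median 9.52) at baseline, 9.61 to 10.05 (median 9.70) at 120 min and 9.56 to 10.11 (median 9.91) at the last biopsy of the shunt pigs. Its control values were 9.38, 9.38, 9.44, 9.34 and 9.53 at baseline, 9.47, 9.67, 9.48, 9.47 and 9.70 at 120 min, and 9.52, 9.59, 9.63, 9.46 and 9.46 at the last biopsy. All 120 min values of the shunt pigs were above all their baseline values, and the control values overlapped. EIF4A3 rose by 0.21 ± 0.06 (SE, adjusted p = 0.00754, limma), upward in 11 of 11 pigs.

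EIF4EBP2 encodes a binding protein that keeps eIF4E from the scaffold. Shunt pigs had 10.44 to 10.76 (median 10.60) at baseline, 10.11 to 10.52 (median 10.38) at 120 min and 9.85 to 10.63 (median 10.29) at the last biopsy. Control pigs had 10.01, 10.59, 10.49, 10.68 and 10.73 at baseline, 9.80, 10.47, 10.39, 10.41 and 10.69 at 120 min, and 9.90, 10.43, 10.20, 10.58 and 10.47 at the last biopsy. The ranges overlapped, yet each of the 11 pigs was lower at 120 min than at its own baseline. The fall was 0.20 ± 0.06, and EIF4EBP2 fell by 0.17 with an adjusted p of 0.0544 when shunt pig 3 was left out (0.0177 with all pigs, limma). EIF4EBP1, its better known relative, was not analysed here.

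EIF4E2, a second cap-binding protein that represses translation of the messenger RNAs it holds, was 0.15 ± 0.04 higher (SE, adjusted p = 0.0106, limma). EIF4G3, a second scaffold, fell by 0.14 ± 0.05 (adjusted p = 0.0383, limma). By arm its change was -0.24 in shunt pigs and -0.02 in control pigs, of which 3 of 5 were higher. Leaving out any of 6 pigs in turn (shunt pigs 1, 3, 4, 5 and 6, control pig 2) ended the call of EIF4G3, with an adjusted p between 0.0657 and 0.105. The members of the EIF4 group that did not pass were EIF4B at -0.11 and EIF4H at 0.03, which stimulate the helicase, and EIF4G2 at 0.04, a scaffold without a site for eIF4E.

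In the EIF2 group, which holds the tRNA carrier eIF2 and its exchange factor eIF2B, 1 of 9 members rose at 120 min, 3 fell and 5 did not pass. EIF2S1, the alpha subunit of eIF2 and the target of the stress kinases, had 10.14 to 10.43 (median 10.22) at baseline, 10.38 to 10.69 (median 10.49) at 120 min and 10.33 to 11.00 (median 10.66) at the last biopsy of the shunt pigs. Control values were 10.04, 10.03, 10.36, 10.11 and 10.13 at baseline, 10.16, 10.41, 10.13, 10.43 and 10.05 at 120 min, and 10.20, 10.50, 10.42, 10.27 and 10.10 at the last biopsy. All 6 shunt pigs were higher at 120 min than at their own baseline, but the ranges overlapped, and 3 of 5 control pigs were higher. EIF2S1 rose by 0.20 ± 0.07 (SE, adjusted p = 0.0306, limma). Its adjusted p lay between 0.0526 and 0.0771 when 1 of 6 pigs was left out (shunt pigs 1, 3, 5 and 6, control pigs 2 and 4). EIF2S2, the beta subunit, had a change of 0.08 and did not pass.

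The exchange factor eIF2B recharges eIF2 with GTP, and its alpha, beta, gamma and delta subunits were measured as EIF2B1 to EIF2B4. EIF2B1 had 8.33 to 8.58 (median 8.52) at baseline, 7.96 to 8.37 (median 8.18) at 120 min and 7.84 to 8.32 (median 7.96) at the last biopsy of the shunt pigs. Control pigs had 8.33, 8.30, 8.74, 8.33 and 8.23 at baseline, 7.93, 8.09, 8.24, 8.37 and 7.99 at 120 min, and 8.05, 7.80, 8.56, 8.13 and 8.15 at the last biopsy. At the last biopsy every shunt value was below every shunt baseline value, and the control values overlapped. At 120 min EIF2B1 fell by 0.29 ± 0.06 (SE, adjusted p = 0.000451, limma), downward in 10 of 11 pigs. In the array sets fitted alone, with fewer arrays, it stood at -0.33, -0.27 and, in control pigs, -0.26. None of these passed (adjusted p = 0.0564, 0.318 and 0.13, limma).

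EIF2B4 fell by 0.19 ± 0.06 (adjusted p = 0.0124, 10 of 11 pigs lower) and EIF2B2 fell by 0.17 ± 0.05 (adjusted p = 0.00709, 9 of 11 pigs lower, limma). EIF2B3 stood at -0.11 with an adjusted p of 0.0922. In shunt pigs taken alone all 4 subunits fell at 120 min, and in control pigs none passed, with changes between -0.26 and -0.01. The remaining members of the group did not pass. They were EIF2A at -0.14, an alternative carrier of the initiator tRNA, EIF2D at -0.03, which acts in recycling and reinitiation, and EIF2AK2 at 0.08, the kinase PKR that phosphorylates eIF2 in response to double-stranded RNA.

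Of the 9 measured subunits of eIF3, the complex that holds the small ribosomal subunit open, 1 rose and 2 fell. EIF3B, a core subunit, had 6.81 to 7.45 (median 7.22) at baseline, 7.43 to 7.95 (median 7.65) at 120 min and 7.49 to 8.41 (median 7.97) at the last biopsy of the shunt pigs. Control pigs had 7.44, 7.47, 7.37, 7.24 and 7.25 at baseline, 7.64, 7.60, 7.14, 7.49 and 7.52 at 120 min, and 7.62, 8.08, 7.30, 7.32 and 7.62 at the last biopsy. The last biopsies of the shunt pigs were all above their baselines, and control pig 3 alone was lower at 120 min than before. EIF3B rose by 0.31 ± 0.08 at 120 min (SE, adjusted p = 0.00623, limma). Its change was 0.46, 0.47 and, in control pigs, 0.12 in the array sets fitted alone. None of these passed (adjusted p = 0.0966, 0.198 and 0.557, limma).

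The subunit gene EIF3K fell by 0.16 ± 0.05 (adjusted p = 0.0103, 10 of 11 pigs lower), and EIF3H fell by 0.15 ± 0.04 (adjusted p = 0.0097, 11 of 11 pigs lower, limma). The other 6 subunits, EIF3A, EIF3D, EIF3E, EIF3I, EIF3L and EIF3M, did not pass, with changes between -0.07 and 0.08. No member of the EIF1 group passed at 120 min, and no unadjusted p was under 0.05 there. EIF1 and EIF1B, which guard the choice of start codon, had changes of 0.09 each, and EIF1AX, which works beside them, had -0.01. In the remaining groups EIF5A, an elongation helper named as an initiation factor, had 0.09, and EIF5B, the factor that joins the large subunit, had 0.16 with an adjusted p of 0.0506. EIF6, which keeps free large subunits from joining, had 0.07 and did not pass.

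Of the 15 called members, 5 changed in the same direction in all 11 pigs: EIF4A1, EIF4G1 and EIF4A3 upward, EIF4EBP2 and EIF3H downward. The calls rest on these same changes within pigs, and the share of all genes that moved alike was not counted. Without the block for pig the counts were 7 higher and 4 lower. Leaving out a single pig ended the call of EIF4EBP2 for shunt pig 3 only. For EIF2S1, EIF4A2 and EIF4G3 it did so for each of 6 pigs in turn, as given above. The other 11 calls held whichever single pig was left out.

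**Figure D3:**
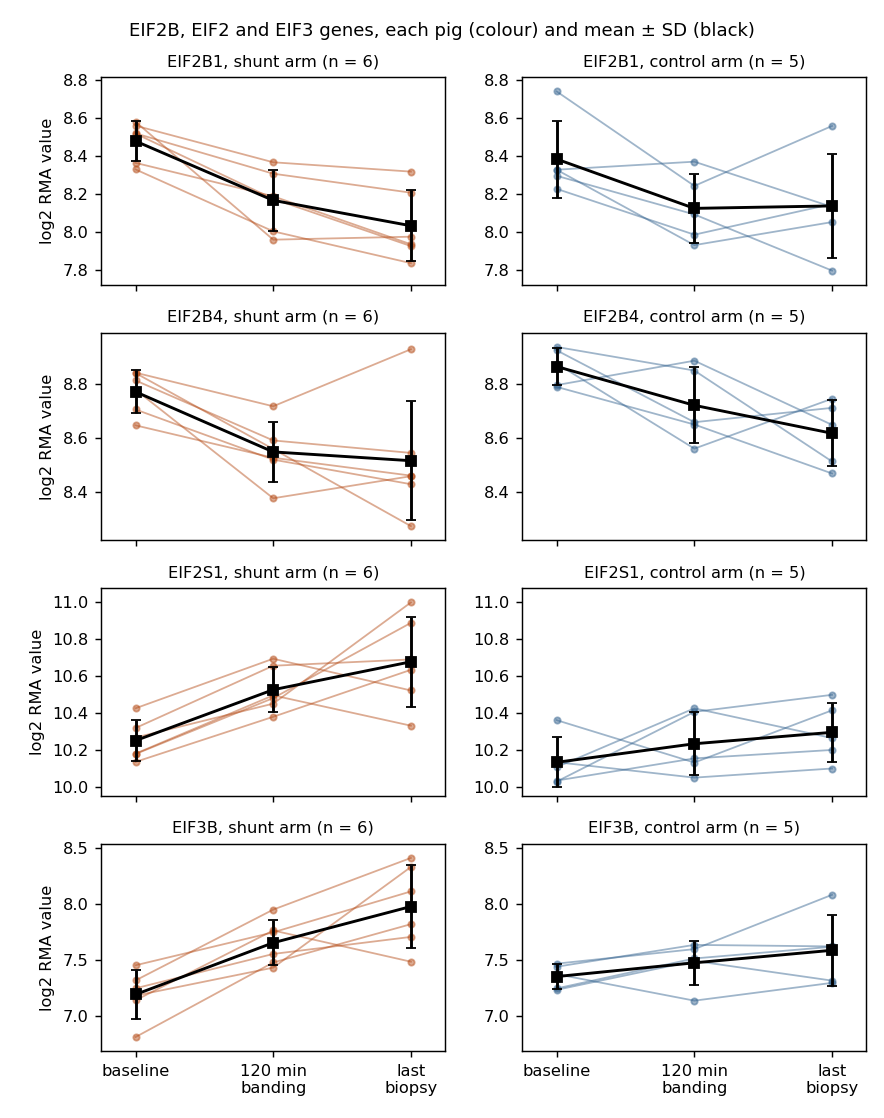
Levels (log2 RMA value) of EIF2B1, EIF2B4, EIF2S1 and EIF3B at the 3 biopsies, with the shunt arm (6 pigs) on the left and the control arm (5 pigs) on the right; thin lines are pigs and black squares are means with SD. In the shunt arm EIF2B1 is lower and EIF3B and EIF2S1 are higher at the last biopsy than at baseline in every pig.

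Taken by arm, 120 min of banding gave 7 higher and 7 lower members in the shunt pigs, where 9.75% of all probe sets were called higher and 14.3% lower. In the control pigs EIF4A1 was the 1 member that passed, 1.08 ± 0.17 higher (SE, adjusted p = 0.000365, limma), and 0 passed as lower, against 2.97% and 3.76% of all probe sets, while 7 members had an unadjusted p under 0.05. EIF4G1 (0.21) and EIF4A3 (0.14) did not pass there but were higher in 5 of 5 control pigs. Likewise EIF3H (-0.15), EIF4EBP2 (-0.15), EIF3K (-0.11), EIF1AY (-0.36) and EIF2A were lower in 5 of 5, and of EIF3K every control value at 120 min lay below every control value at baseline. The share of all genes that moved alike in every control pig, or did not overlap, was not counted. In shunt pigs the rises were those of EIF4A1, EIF4E, EIF3B, EIF2S1, EIF4A3, EIF4G1 and EIF2S2, and the falls those of EIF2B1, EIF2B2, EIF2B3, EIF2B4, EIF4EBP2, EIF4G3 and EIF3K. There EIF4A1 rose by 1.59 ± 0.15 and EIF4E by 0.96 ± 0.20 (adjusted p = 1.56e-07 and 0.00111). The arms had the same treatment up to this biopsy. Of the difference between them (shunt minus control), no member and 0% of all probe sets passed, and 5 members had an unadjusted p under 0.05 (limma interaction). The smallest p values were those of EIF1AY (0.42, adjusted p = 0.616), EIF2S2 (0.19, adjusted p = 0.677) and EIF4A1 (0.52, 95% interval 0.05 to 0.98, adjusted p = 0.681). The 7 falls in the shunt arm were 2 without the block for pig. With 1 pig left out they were 3 (without shunt pig 1, 4 or 6) or 2 (without shunt pig 3), and the rises were 4 without shunt pig 3, 4 or 6. Only EIF4A1, EIF4E, EIF3B, EIF2B1 and EIF4G3 held whichever single pig was left out, and the other 9 reached an adjusted p of 0.05 to 0.147 without at least 1 pig.

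After 120 min the arms were treated differently, and no member passed in shunt pigs or in control pigs between that biopsy and the last one, as for 0% of all probe sets in each arm. An unadjusted p under 0.05 was reached by 4 members in shunt pigs and 0 in control pigs (limma). In shunt pigs the smallest p values belonged to EIF3I, a core subunit of eIF3 (0.23 ± 0.07, adjusted p = 0.346), EIF1B (0.23 ± 0.08, adjusted p = 0.39) and EIF3B (0.32 ± 0.11, adjusted p = 0.407). EIF3I and EIF1B were higher in 6 of 6 shunt pigs and EIF3B in 5 of 6. Without shunt pig 2 the change of EIF3B was 0.21. In control pigs they belonged to EIF2B3 (-0.13), EIF3A (0.12) and EIF1B (0.11), each with an adjusted p of 1.

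The effect of the shunt on these genes is addressed by the difference between the arms in this later change. No member and 0% of all probe sets passed, with 1 member at an unadjusted p under 0.05 (limma interaction). The smallest p values were those of EIF3I (0.22, adjusted p = 1), EIF4G1 (0.20) and EIF4G2 (0.15), shunt minus control, while the difference was greatest for EIF4E (0.27), and EIF4G1 stood at 0.12 without shunt pig 2. For EIF4A1 the later change was 0.26 ± 0.15 in shunt pigs and 0.05 ± 0.17 in control pigs, and for EIF4E it was 0.46 ± 0.20 and 0.19 ± 0.22 (SE).

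Over the whole course, the last biopsy against baseline, the shunt pigs showed 14 higher and 10 lower members of 36, where 13.3% of all probe sets were called higher and 19.2% lower. The members' shares were 38.9% higher and 27.8% lower, against 16.7% and 23.6% of the 6765 genes, and the median change was 0.14 for the members and -0.02 for all genes. The share of rises was therefore above the background, which is a description of these counts and not a test. Of the 15 members called at 120 min, 13 were also called here. EIF4E2 (0.14, adjusted p = 0.0742) and EIF2B2 (-0.14, adjusted p = 0.079) were not. Both comparisons use the same baseline arrays of the shunt pigs, and the share of all genes called in both was not counted. In control pigs EIF4A1 alone passed, 1.13 ± 0.17 higher (SE, adjusted p = 0.000145, limma), where 3.5% of all probe sets were called higher and 5.29% lower.

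EIF4A1 rose by 1.85 ± 0.15 in shunt pigs, or 3.60-fold (adjusted p = 9.98e-09, limma). EIF4E rose 2.66-fold and EIF3B 1.72-fold (1.41 ± 0.20 and 0.79 ± 0.11, adjusted p = 9.36e-06 and 8.3e-06). Further rises were those of EIF2S1 (0.43 ± 0.09), EIF4A3 (0.42 ± 0.08), EIF4G1 (0.38 ± 0.08) and EIF3I (0.30 ± 0.07), each upward in 6 of 6 shunt pigs. The deepest falls were those of EIF2B1 (-0.44 ± 0.08, adjusted p = 8.88e-05, 6 of 6 pigs lower), EIF4EBP2 (-0.39 ± 0.08, 5 of 6 lower) and EIF4G3 (-0.29 ± 0.07, 6 of 6 lower). EIF4EBP2 was lowest in shunt pigs 1 and 2, at 9.87 and 9.85, and shunt pig 5 did not follow.

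The other 14 calls were smaller, between 0.18 and 0.29 upward and between -0.26 and -0.17 downward. They raised EIF1, EIF1B, EIF2S2, EIF3A, EIF3D, EIF3M and EIF6 and lowered EIF2A, EIF2B3, EIF2B4, EIF3H, EIF3K, EIF4A2 and EIF4B. By group this made 5 of 9 eIF3 subunits higher and 2 lower, 2 of 4 EIF1 genes higher and 3 of 4 eIF2B subunits lower. The EIF4 group was split evenly, with 4 higher and 4 lower of 11. Of the 24 calls, 13 held whichever single pig was left out. Adjusted p passed 0.05 without shunt pig 2 for EIF6, without shunt pig 1 for EIF2B4, without shunt pig 1 or 3 for EIF2B3, and without any 1 of several pigs (3 to 6, mostly shunt pigs) for EIF1, EIF2A, EIF3A, EIF3D, EIF3H, EIF3K, EIF3M and EIF4A2.

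The counts of calls in the shunt arm fell to 9 higher without shunt pig 2. They fell to 6 lower without shunt pig 1 or 2 and to 5 lower without shunt pig 3. Without the block for pig 11 were higher and 6 lower. Fitted alone, shunt pigs 1 to 4 gave 8 higher and 5 lower members and shunt pigs 5 and 6 gave EIF4A1 alone, at 1.6, with fewer arrays in each fit. EIF3B stood at 0.79 and 0.78 in these 2 sets, EIF4E at 1.62 and 1.00, and EIF2B1 at -0.46 and -0.42.

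In control pigs several members moved alike in every animal without passing. The share of all genes that did so, or whose biopsies did not overlap, was not counted. EIF2B4 stood at -0.25 ± 0.08 (adjusted p = 0.0614, limma) over the whole course, lower in 5 of 5 pigs, and all its last values, 8.47 to 8.75, were below all its baseline values, 8.79 to 8.94. EIF2B1 stood at -0.25 ± 0.08 (adjusted p = 0.074), EIF2B2 at -0.15 ± 0.07 (adjusted p = 0.176) and EIF2B3 at -0.14 ± 0.07 (adjusted p = 0.278), each lower in 5 of 5 pigs. All 4 subunits of eIF2B thus had negative changes in both arms, and the differences between the arms (shunt minus control) lay between -0.20 and 0.01. EIF1B stood at 0.21 ± 0.08 (adjusted p = 0.121, higher in 5 of 5 pigs) and EIF4E at 0.50 ± 0.22 (adjusted p = 0.187, higher in 4 of 5 pigs). EIF1AY, EIF3K, EIF4A2 and EIF4EBP2 were also lower, and EIF4E2 higher, in 5 of 5 control pigs over the whole course. With array quality weights 5 members passed in control pigs in place of 1, and the share of all probe sets under that setting was not counted.

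**Figure D4:**
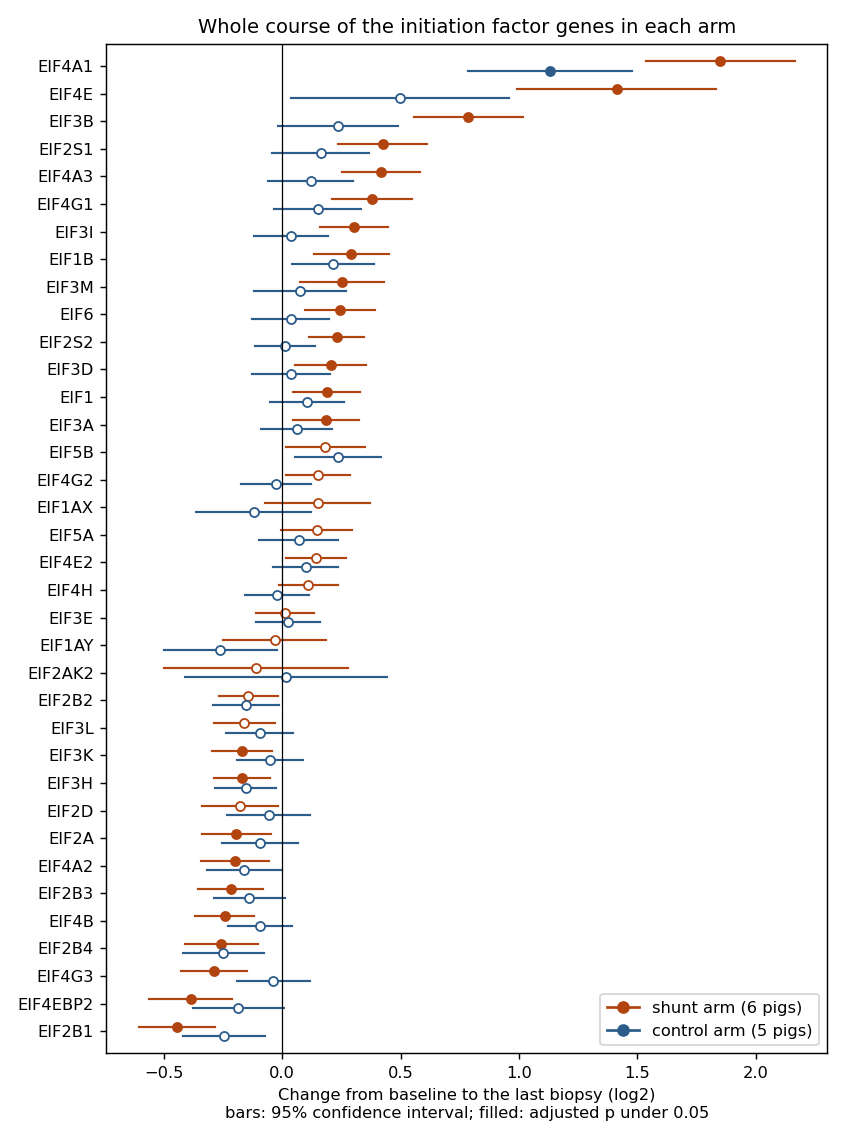
Change from baseline to the last biopsy (log2) of the 36 initiation factor genes in the shunt arm (6 pigs, upper point of each pair) and the control arm (5 pigs, lower point), sorted by the shunt value; bars are 95% confidence intervals and filled points passed an adjusted p under 0.05. The shunt arm has 24 filled points and the control arm has 1, EIF4A1 at 1.13.

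No difference between the arms over the whole course (shunt minus control) passed for any member. Over all probe sets 0.00417% did, which is 1 probe set, and 7 members had an unadjusted p under 0.05 (limma interaction). The smallest p values were those of EIF3B (0.55, 95% interval 0.21 to 0.89, adjusted p = 0.186), EIF4A1 (0.72, 0.25 to 1.19, adjusted p = 0.198) and EIF4E (0.91, 0.29 to 1.54, adjusted p = 0.213). Without shunt pig 4 the difference in EIF3B was 0.65 with an adjusted p of 0.0442. Among the 24 members called in shunt pigs, the interval of the difference held 0 for 17 and did not for 7. The counts of calls in the arms, 24 and 1, are therefore no test of a difference between them.

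At baseline no member passed between the arms, with 2 at an unadjusted p under 0.05, while 0.0208% of all probe sets passed (5 probe sets, limma on the 11 baseline arrays, shunt minus control). By size the difference was greatest for EIF1AY, with means of 6.13 in shunt pigs and 8.14 in control pigs and a difference of -2.02 ± 1.57 (SE, adjusted p = 0.651, limma). Values of this gene were low in 3 of 6 shunt pigs and 1 of 5 control pigs. The smallest p values were those of EIF4A2 (0.26, adjusted p = 0.296), EIF5B (-0.24, adjusted p = 0.414) and EIF3K (0.12, adjusted p = 0.569). EIF3K stood at 0.07 without shunt pig 3.

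EIF1AY stood apart from all other members. In man this gene and EIF1AX are the Y-linked and X-linked copies of the gene for eIF1A. In 4 pigs (shunt pigs 3, 4 and 5 and control pig 4) all 12 arrays lay between 2.85 and 3.5, and in the other 7 pigs all 21 arrays lay between 8.84 and 9.61. No array lay between these ranges. The SD over pigs at baseline was 3.16, against 0.07 for EIF2S2 to 0.55 for EIF2AK2 in the other 35 members. In the 7 pigs with the higher values EIF1AY was lower at 120 min in 7 of 7, by 0.17 to 0.71 on the log2 scale, and in the 4 others the change lay between -0.22 and 0.48. These pigs were set apart by their own values, so no test was made, and a mean of EIF1AY over an arm combines both kinds of pig.

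Of the 36 genes 13 had more than 1 probe set, and these did not always move alike. EIF4E2 was the clearest case. Its probe set of highest mean rose by 0.15 ± 0.04 at 120 min, while a second set for EIF4E2 rose by 0.65 ± 0.09 (adjusted p = 6.45e-06, limma) and the remaining one stood at -0.03 ± 0.07. Over the whole course the second set of EIF4E2 rose by 1.36 in shunt pigs and by 0.52 in control pigs, where the set used had 0.14 and 0.10. Second sets for EIF1AX (0.20), EIF3D (0.30) and EIF4H (0.26) passed at 120 min where the sets used (-0.01, 0.08 and 0.03) did not.

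The reverse held for EIF2B1 and EIF4EBP2. The second probe set of EIF2B1, dimmer than the first, stood at -0.04 with an adjusted p of 0.688, against -0.29 in the set used. The 4 other sets of EIF4EBP2 stood at -0.23, 0.03, 0.03 and 0.10 and none passed. For EIF4G1 the second set had 0.17 (adjusted p = 0.0962), in the same direction as the 0.22 of the set used. EIF4A1, EIF4E, EIF3B and EIF2S1 each rest on a single probe set. Over the whole course in shunt pigs, the second sets of several called members did not pass. They stood at -0.004 for EIF2B1, 0.04 for EIF2A, -0.12 for EIF4B, 0.16 for EIF3M, 0.17 for EIF1 and 0.22 for EIF4G1. Those of EIF3D (0.37) and EIF4EBP2 (-0.39) passed, and the remaining sets of EIF4EBP2 did not. Second sets of EIF1AX (0.35), EIF5B (0.30) and EIF4H (0.25) passed where the sets used did not. With sets averaged by gene, 30 members passed, 22 of them among the 24 calls, and the share of all genes under that setting was not counted.

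**Figure D5:**
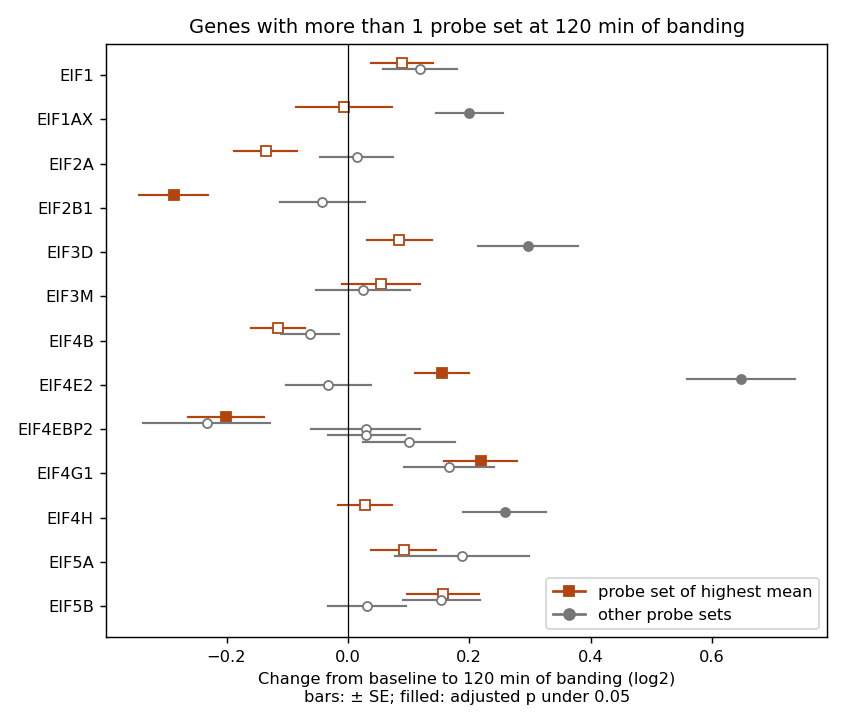
Change from baseline to 120 min of banding (log2, mean of 11 pigs) for the 13 genes with more than 1 probe set; squares are the probe sets of highest mean used in the text, circles the other sets, bars are SE and filled symbols passed an adjusted p under 0.05. The second set of EIF4E2 lies at 0.65, far from its first at 0.15, and the sets of EIF2B1 and EIF4EBP2 do not coincide.

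Genes that work beside the factors were counted from 4 lists. For comparison with each list, 13.1% of the 6765 genes were called higher and 20.8% lower at 120 min over all pigs. The lists are short, and their counts are no test. Of the partners and regulators of the cap complex, 6 of 15 were measured at 120 min, with 1 higher and 2 lower and a median of -0.02. PABPC4 and PABPC1, proteins that bind the poly(A) tail, moved in opposite directions, at -0.22 ± 0.05 (adjusted p = 0.00292) and 0.15 ± 0.05 (adjusted p = 0.0258, limma). PAIP1, which links the tail protein to the helicase, fell by 0.22. Of the elongation, termination and recycling factors 5 of 16 were measured, and EEF1E1, a part of the multi-synthetase complex, rose by 0.92 ± 0.15 (adjusted p = 6.21e-05), with a median of -0.03 and none lower.

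The circuit around eIF2 phosphorylation had 5 higher and 4 lower of 13 measured genes (16 listed), with a median of -0.02. Both regulators that bring a phosphatase to eIF2 rose, PPP1R15A by 0.78 ± 0.11 and PPP1R15B by 0.51 ± 0.08 (adjusted p = 7.61e-06 and 3.69e-05, limma). ATF4, a transcription factor made when eIF2 is phosphorylated, rose by 0.51 ± 0.08. PPP1CC, a catalytic subunit of that phosphatase, fell by 0.31 ± 0.05. In the mTOR pathway, which frees eIF4E by phosphorylating its binding proteins, 13 of 26 genes were measured and 1 rose while 4 fell, with a median of -0.08. The falls were those of DDIT4L (-0.70 ± 0.14) and SESN1 (-0.60 ± 0.10), inhibitors of mTOR, and of RRAGC (-0.45) and RRAGA (-0.29), GTPases that bring mTOR to the lysosome.

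Markers of other cells also changed between biopsies. Of the 6765 genes, 11.7% were called higher and 16.5% lower in shunt pigs at 120 min, and 3.44% and 3.58% in control pigs. Over the whole course these shares were 16.7% and 23.6% in shunt pigs and 4.39% and 5.59% in control pigs. The marker counts by arm are to be read beside these shares and are no test. At 120 min 3 of 7 measured markers of neutrophils and monocytes (9 listed) were higher and 0 lower, with a median of 0.24 over the 11 pigs. By arm 4 of the 7 were higher in shunt pigs, with a median of 0.47, and 0 in control pigs, with a median of -0.03, and of the difference between the arms 0 passed. Their summed level had medians of 9.41, 9.999 and 10.28 at the 3 biopsies of shunt pigs and 9.31, 9.50 and 9.56 in control pigs, with a highest value of 11.42 at the last biopsy of the shunt pigs and 9.85 in control pigs. Over the whole course 5 of these 7 rose in shunt pigs, with a median of 0.68, and 1 in control pigs. Resident macrophage markers had 2 of 3 higher (6 listed) and smooth muscle and pericyte markers 2 of 5 higher (6 listed), with none lower in either list, over the 11 pigs at 120 min. Over the whole course 3 of the 5 smooth muscle and pericyte markers were higher in shunt pigs (median 0.56) and 1 in control pigs (median 0.01), and 3 of the 11 cardiomyocyte markers were lower in shunt pigs (median -0.12) and 0 in control pigs (median -0.02).

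Of the other markers at 120 min, 1 of 11 cardiomyocyte genes (12 listed) and 1 of 6 lymphocyte genes (7 listed) were lower and none higher. Endothelial markers had 1 higher and 2 lower of 7, fibroblast markers 1 and 1 of 4 (6 listed), adipocyte markers 1 and 1 of 3 (4 listed), and of the 3 erythrocyte markers (5 listed) none passed. RNA quality, read from how far the 3' set for GAPDH stood above the 5' set, averaged 0.76, 0.72 and 0.67 at the 3 biopsies of shunt pigs and 0.86, 0.96 and 0.91 in control pigs. Their part in the changes of the initiation factors was not tested.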

How the data were processed

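The authors deposited log2 values per probe set, made with RMA, per the submitters' processing notes. The program, its version and the arrays normalised jointly are not given in these sources. The values were used as deposited. The tests covered 23999 of 24123 probe sets, without the 124 control sets. A single symbol stood on 10069, which gave 6765 genes. Of the 36 members, 35 matched a RefSeq gene by Entrez identifier, with the same symbol. No genome build was used.

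Changes were fitted in R 4.3.3 with limma 3.58.1 (lmFit, eBayes) on all arrays, with pig as a fixed block and, in each arm, a coefficient for the 120 min and the last biopsy, which left 18 residual degrees of freedom. Differences between the arms were interactions, and the arms were compared at baseline on 11 arrays. Tests were two-sided, with Benjamini-Hochberg over all 23999 probe sets and a threshold of 0.05. Pairing comes from the labels, which name the animal. With group means removed, the median correlation was 0.395 within a pig and -0.05 between pigs, and 28 of 33 arrays were closest to one of their own pig. The fit was tested on simulated data.

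Values by biopsy are given for the 8 called members with the largest change at 120 min and for the cap-binding complex genes. Every member called at 120 min is named, and elsewhere up to 10 with values by smallest p, or 3 where none passed. Up to 4 called genes of each of the 4 lists are named. The members and lists were chosen with earlier results of these data known. Alternatives were 2 other normalisations, an intensity trend, no block or a random block (statmod 1.5.0), only the arrays compared, the dimmest 30% of probe sets left out, array weights, at least a 1.5-fold change, 1 set or the mean of sets per gene, each pig left out, and each array set alone. Precision is limited by the number of arrays, which have no read depth.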

Additional observations from a re-analysis of the deposited data

Results flagged for a closer look

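Of 78 groups of pigs examined for a single value far from the rest, 3 held one, and chance alone marks about 1 group in 20. EIF3B changed by -0.237 from baseline to 120 min in control pig 3, while the other 4 control pigs had 0.130 to 0.268. EIF4E2 changed by -0.0146 in control pig 5 over the same interval, against 0.199 to 0.231 in the others. EIF4A1 changed by 1.83 from baseline to the last biopsy in control pig 2, against 0.841 to 1.11 in the others.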

How the results depend on the processing

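No result reversed its direction under any of the 28 settings. EIF4A1 at 120 min passed in all 25 alternatives, with changes of 1.08 to 1.65, while EIF4A2 lost its call in 12, EIF4G3 in 13 and EIF2S1 in 10 of 25. At 120 min over all pigs the 7 rises and 8 falls became 2 and 0 with a change of at least 1.5-fold. Shunt pigs 1 to 4, shunt pigs 5 and 6 and control pigs fitted alone, with fewer arrays, gave 2, 1 and 1 rises and 0, 0 and 1 falls, and the fall in control pigs was that of EIF1AY, which is not among the 8. The falls were 4 with no replicate block and 5 with a random replicate block (correlation 0.248). With each pig left out they were 5 to 10 (5 without shunt pig 3), and the rises 6 to 8. In the shunt arm at 120 min the 7 rises were 2 at 1.5-fold and 4 to 7 with a pig left out, and the 7 falls were 2 with no replicate block, 4 with only the arrays compared, 0 at 1.5-fold and 2 to 8 with a pig left out. In the control arm the 1 call was 1 to 2 with a pig left out (2 without shunt pig 4 or control pig 4). Over the whole course of the shunt arm the 14 rises were 9 with only the arrays compared, 3 at 1.5-fold, 8 and 1 in the array sets alone and 9 to 14 with a pig left out. The 10 falls were 6 with no replicate block, 4 with only the arrays compared, 0 at 1.5-fold, 5 and 0 in the sets alone and 5 to 11 with a pig left out. The 1 call of the control arm was 2 with a random replicate block, 2 with dim probe sets left out, 5 with array quality weights, 2 with the mean of the probe sets, 2 with p adjusted over 1 probe set per gene, and 1 to 2 with a pig left out (2 without shunt pig 1). The difference between the arms over the whole course had 0 calls, and 0 to 1 with a pig left out (1 without shunt pig 4). The other comparisons with 0 calls had 0 under every alternative, the replicate block settings included. Apart from the smaller fits and the fold minimum, the cause of these shifts was not tested. The share of all probe sets called was counted for the main fit only. The analysis by array set over the whole course was added after the data were seen. The number of arrays per group limits the precision.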
